A study of Mus musculus with 32 samples.

Results

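Ribosome-associated RNA of Scnn cortex, a glutamatergic population, was compared with that of VIP cortex, a GABAergic population, using the 4 libraries of each, which are 8 of the 32 libraries of the study. The libraries were found by their titles and tissue labels. The pair itself was picked because earlier results of these data had placed these populations of opposite class close together, so values on how near they are to each other describe that choice and are no independent evidence of it. The study profiled 8 groups of 4 libraries from neuron populations of mouse cortex and hippocampus. Beside the Scnn and VIP groups, the cortical CamK, PV and SST groups served for comparison (4 libraries each), and 12 hippocampal libraries (CamK, Grik and SST) are used where stated. Every library is labelled wild type and carries no treatment label; the age of the animals, the driver lines and any pooling of animals are not given in the labels used here. Titles of VIP cortex and of all hippocampal groups carry a W with the number, and titles of Scnn, CamK, PV and SST cortex do not.

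As background, glutamatergic cortical neurons release glutamate and include the pyramidal cells and the stellate cells of layer 4, while GABAergic interneurons release GABA and inhibit their neighbours. The Scnn name is taken from a driver line that is enriched in layer 4 neurons, which receive input from the thalamus. The VIP name is taken from vasoactive intestinal peptide, a neuropeptide that marks interneurons known for inhibiting other interneurons. Profiles of this kind are usually made by pulling down tagged ribosomes from the cells in which a Cre driver is active, so a profile is bounded by the cells that the driver reaches. The labels give the names alone, and these identities are general knowledge.

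The counted features are named by GSMG identifiers. The files pair none of these with a gene, and the annotation tables at hand matched 0 of them. Marker genes of both classes, of layer 4, of VIP cells and of glia could therefore not be looked up, and the labels were not checked on them. Results are given as counts of features and as a few identifiers, with at most 2 higher and 2 lower per comparison. In bulk samples of this kind, fewer cells of a type and less RNA per cell cannot be told apart.

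The Scnn libraries held 105524011 to 109578502 counts and the VIP libraries 100158438 to 106514157. Every Scnn library was farther from every VIP library than any libraries of either group were from each other. The root mean square difference in log2 CPM (counts scaled to the library's TMM-adjusted total) over 24555 features was 1.22 to 1.55 between Scnn and VIP libraries (16 pairs). It was 0.795 to 1.03 among the Scnn libraries and 0.696 to 0.792 among the VIP libraries (6 pairs each). The Scnn libraries differed among themselves in their nearest neighbour. Scnn replicate 2 was nearer to the VIP mean (1.21) than to the CamK mean (1.44), whereas Scnn replicate 1 was nearer to CamK (1.20) than to VIP (1.44). Scnn replicate 3 was also nearer to CamK (1.22 against 1.32 to VIP), and Scnn replicate 4 was nearer to VIP (1.30 against 1.36 to CamK). The mean of all 4 Scnn libraries was about as far from VIP (1.19) as from CamK (1.18). Without Scnn replicate 2 these distances were 1.26 to VIP and 1.16 to CamK, and without Scnn replicate 1 they were 1.17 and 1.24, so the nearer neighbour of Scnn depended on single libraries. From the VIP side the nearest of these cortical groups was Scnn, whichever Scnn library was left out. Distances without single VIP libraries were not computed. The VIP mean was 1.38 from SST, 1.43 from PV and 1.73 from CamK, and 1.17 to 1.26 from Scnn with single Scnn libraries left out. This closeness is the one for which the pair was picked.

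Scnn and VIP differed in 4433 of 24555 features tested (18.1%), called by edgeR's quasi-likelihood test at a Benjamini-Hochberg adjusted p under 0.05 and at least 2-fold. Of these, 1857 (7.56% of those tested) were higher in Scnn and 2576 (10.5%) were higher in VIP. Large changes were more often on the VIP side: 271 features were at least 8-fold higher in Scnn, and 647 were at least 8-fold higher in VIP. At 32-fold these counts were 53 for Scnn and 191 for VIP. Without the fold threshold 10427 features passed, and the larger side turned, with 5451 higher in Scnn and 4976 higher in VIP. The median log2 fold change of all features tested was -0.13. Without Scnn replicate 2 there were 4961 calls, 1913 higher in Scnn and 3048 higher in VIP. That library was the highest of the 4 Scnn libraries in 43.2% of the features higher in VIP and in 10.3% of those higher in Scnn, beside 25.6% of all features tested.

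Many features were alike within a stated bound. For 10244 features (41.7%) the 95% interval of the log2 fold change lay within 2-fold in both directions, and for 9878 (40.2%) the data neither gave a call nor bounded the difference that closely. Alike here means a bounded difference and not its absence, as 4504 of the 10244 had an edgeR adjusted p under 0.05. Over all 56459 features of the table, 13153 were at 1 CPM or more in all 8 libraries. Another 189 were at 1 CPM or more in all 4 Scnn libraries and below it in all 4 VIP libraries, and 412 showed the reverse. Switching from near absence to a clear level was rare. Only 4 features, GSMG0037152 and GSMG0052031 among them, were at 5 CPM or more in every Scnn library and below 0.5 CPM in every VIP library. In the VIP direction 17 features met these limits, GSMG0021962 and GSMG0037896 among them. Of those 4 Scnn features, 0 had a CamK mean below 0.5 CPM, while all 4 were below it in PV and 3 in SST. Of the 17 VIP features, 16 had a CamK mean below 0.5 CPM, 12 a PV mean and 10 an SST mean, and 9 were below it in all these groups. Low levels are common in the table, so these counts are not read as setting the VIP features apart. The share of all features with a group mean below 0.5 CPM was not counted. At an unlike limit, 1 CPM in a library, on average 13938 of the 56459 features reached it in CamK cortex, 13941 in PV and 14062 in SST.

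Scnn and VIP had the fewest calls of the 6 cortical pairs that join a glutamatergic with a GABAergic population, a description that restates the closeness for which the pair was picked. Their 4433 calls compare with 6011 for CamK against SST (24.5%) and 6459 for Scnn against SST (26.3%). Scnn against PV gave 7075 (28.8%), CamK against PV 8488 (34.6%) and CamK against VIP 8701 (35.4%). The pairs also differed in their balance. Against PV, 16.8% of features were higher and 12% lower in Scnn, and against SST 15.6% were higher and 10.7% lower. Only against VIP, of these 3 comparisons of Scnn, did the lower features outnumber the higher ones. For CamK 11.4% were higher and 24.1% lower against VIP, 16.8% and 17.8% against PV, and 11.4% and 13% against SST. The pairs share libraries, so their counts are set side by side without a test. Scnn against VIP had the lowest count of the 6 in every alternative in which all were fitted, which include leaving out each Scnn and VIP library.

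**Figure D1:**
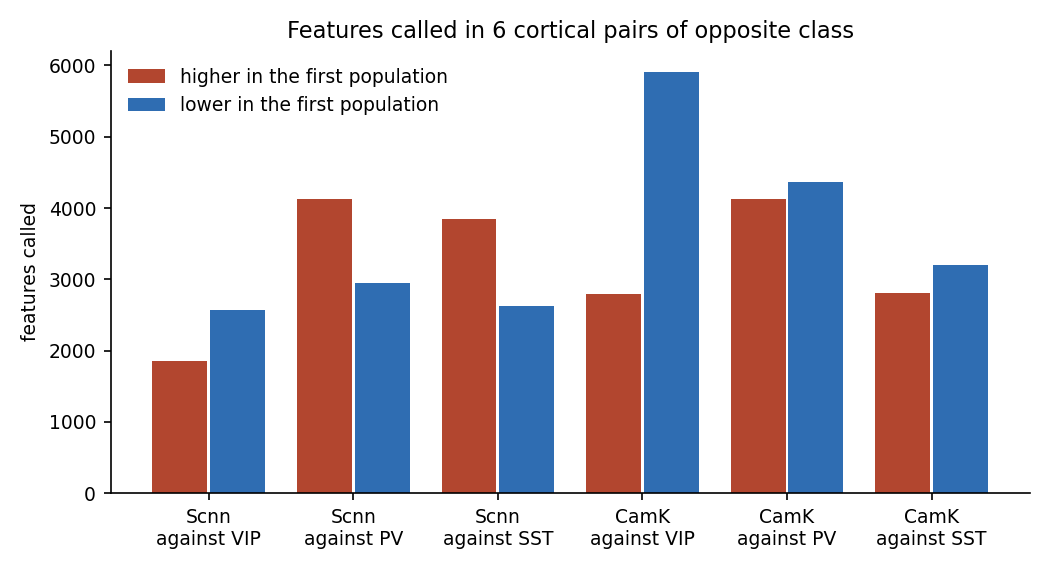
Number of features called (vertical axis) in each cortical pair of a glutamatergic with a GABAergic population, split into features higher and features lower in the first named population, from 4 libraries a group. Scnn against VIP has the lowest total, with 1857 features higher and 2576 lower in Scnn, and CamK against VIP the highest, with 2790 higher and 5911 lower in CamK.

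The balance of the calls followed abundance. Among 9876 features with a mean below 1 CPM over all 32 libraries, 499 were higher in Scnn and 1115 higher in VIP. From 1 to 10 CPM the counts were 526 for Scnn and 860 for VIP, of 5435 features. From 10 to 100 CPM the order turned, with 553 higher in Scnn and 493 higher in VIP, of 7085. Among the 2159 features at 100 CPM or more, 279 (12.9%) were higher in Scnn and 108 (5.0%) higher in VIP. The mean that forms the bins includes the Scnn and VIP libraries themselves. Bounds were closer in abundant features: 76.7% of features at 100 CPM or more had an interval within 2-fold, compared with 4.38% of those below 1 CPM. Length separated the lists little. The deposited length had a median of 1671 for features higher in Scnn, 1729 for features higher in VIP and 1639 for all tested.

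**Figure D2:**
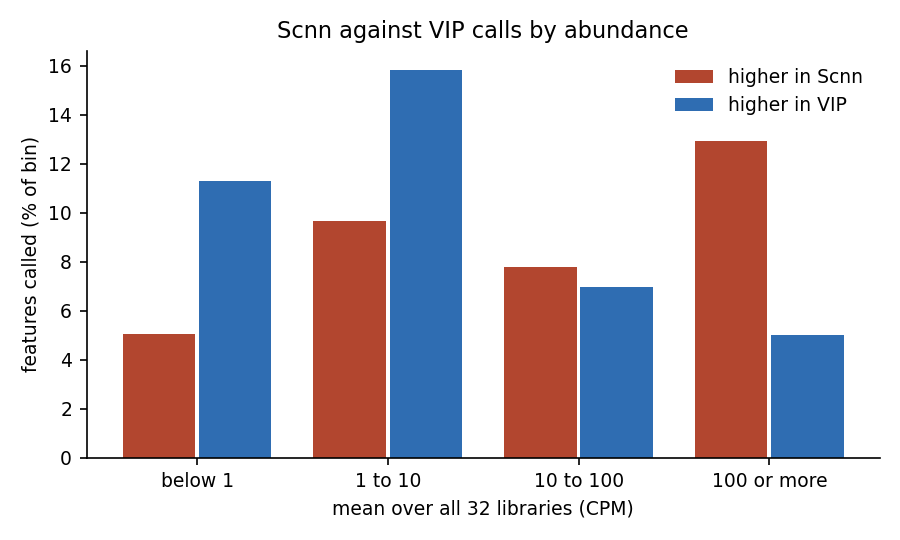
Share of features called (percent of each bin, vertical axis) in Scnn against VIP, by the mean level of the feature over all 32 libraries in CPM (horizontal axis), with calls higher in Scnn and higher in VIP side by side. VIP leads in the lower bins, and Scnn leads among features at 100 CPM or more (12.9% for Scnn and 5.0% for VIP).

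The extremes were taken from features that were called, averaged 5 CPM or more on the higher side and did not overlap between libraries. GSMG0037152 had the largest excess in Scnn. It was at 19.1, 14.7, 18.2 and 12.9 CPM in the Scnn libraries, and at 0.149, 0.249, 0.182 and 0 CPM in the VIP libraries. The groups did not overlap, and the log2 fold change was 6.78 (SE 0.63, edgeR adjusted p = 8.59e-10). Its mean in CamK was 0.605 ± 0.171 CPM (SD, n = 4), far below the Scnn libraries, and it was at 0.0604 ± 0.0369 CPM in PV and 0.0208 ± 0.0247 CPM in SST. GSMG0052031 was at 13.6, 11.5, 17.1 and 12.7 CPM in Scnn and at 0.216, 0.21, 0.228 and 0.0351 CPM in VIP. Its log2 fold change was 6.30 (SE 0.48, edgeR adjusted p = 1.27e-12). CamK held more of it, 2.75 ± 0.256 CPM, against 0.134 ± 0.0897 CPM in PV and 0.0787 ± 0.0254 CPM in SST, so both glutamatergic populations lay above all GABAergic ones.

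On the VIP side GSMG0021962 was at 0, 0, 0 and 0.0376 CPM in the Scnn libraries and at 6.19, 7.79, 5.06 and 7.06 CPM in the VIP libraries. Its rounded counts summed to 4 over the 4 Scnn libraries and 3216 over the VIP libraries. The fitted log2 fold change was -9.28 (SE 0.95, edgeR adjusted p = 3.05e-09). It rests on the 1 Scnn library with counts, and without that library (Scnn replicate 4) the fitted value was -12.49, which depends on the prior count and is no bound. This feature was nearly limited to VIP in cortex, with summed counts of 1 in CamK, 2 in PV and 6 in SST. GSMG0003666 was at 1.21, 1.52, 0.681 and 1.23 CPM in Scnn and at 669.2, 648.8, 518.9 and 715.9 CPM in VIP. Its log2 fold change was -9.11 (SE 0.46, edgeR adjusted p = 7.25e-15). It averaged 0.763 ± 0.426 CPM in CamK, 0.495 ± 0.157 CPM in PV and 21.2 ± 4.22 CPM in SST, so a second interneuron group held it at a low level.

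**Figure D3:**
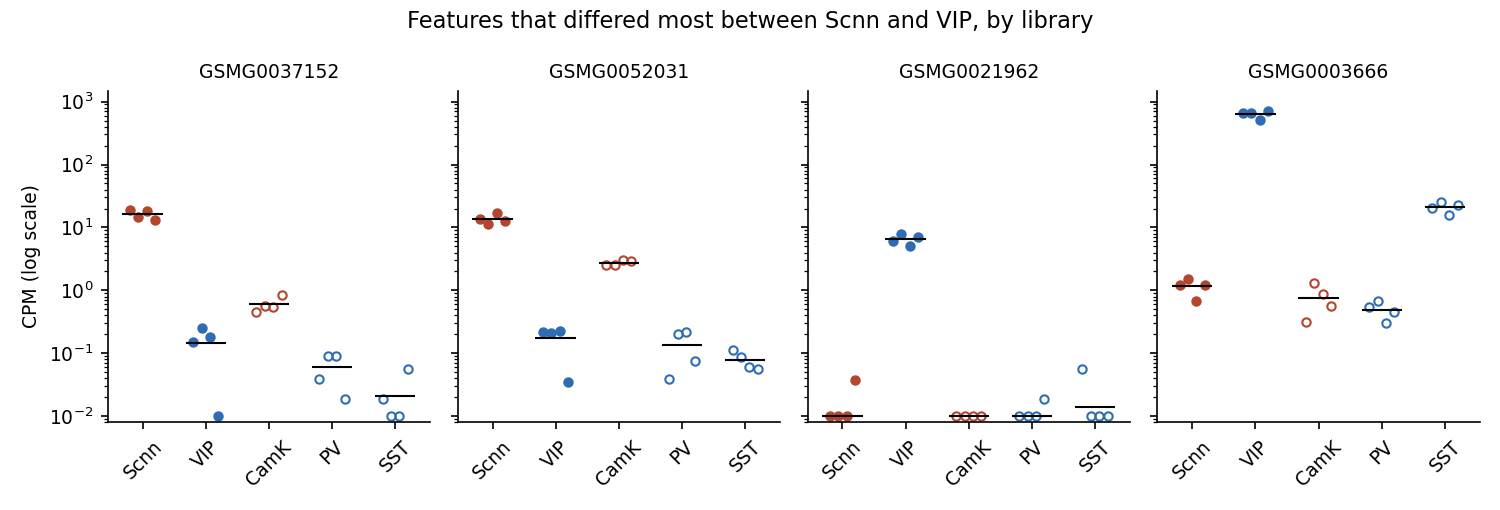
Level in CPM (log axis) of the 4 features that differed most between Scnn and VIP, in each of the 20 cortical libraries, with filled points for Scnn and VIP, open points for CamK, PV and SST, and lines at group means. Values below 0.01 CPM are drawn at 0.01; the Scnn and VIP points do not overlap in any of the 4 panels.

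Whether the Scnn and VIP difference ran along the class difference was read in libraries that neither group shares. CamK differed from the mean of PV and SST cortex in 7248 features (29.5%), 3559 higher in CamK (14.5%) and 3689 lower (15%). Of the 1857 features higher in Scnn than in VIP, 1105 (59.5%) were also higher in CamK than in PV and SST, and 80 (4.31%) were lower. Of the 2576 features higher in VIP, 1101 (42.7%) were also higher in PV and SST than in CamK, and 291 (11.3%) were lower in them. The shared features are 31.0% of the list higher in CamK and 29.8% of the list lower in CamK. The median log2 fold change of CamK over PV and SST was 1.37 for features higher in Scnn and -0.91 for features higher in VIP, beside -0.06 for all features tested. Signs were also shared by features without a call in CamK. Of the whole Scnn list, called in CamK or not, 85.9% was above 0 in CamK over PV and SST, beside 47.3% of all features tested. Of the whole VIP list 74.0% was below 0, beside 52.6% of all features tested.

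Across 24555 features the log2 fold changes of Scnn over VIP and of CamK over PV and SST had a Pearson correlation of 0.42 (Spearman 0.48). It was 0.50 over the 14679 features that averaged 1 CPM or more. The contrasts come from separate libraries that were scaled and fitted together, and features are not independent replicates. Taken singly, CamK over SST correlated more closely with Scnn over VIP (0.56 over the same 14679 features) than CamK over PV did (0.40). By calls the lists differed on this point. Of the Scnn list, 59.1% was also higher in CamK than in PV and 55.5% also higher in CamK than in SST, beside 16.8% and 11.4% of all features tested. Of the VIP list, 40.4% was also lower in CamK than in PV and 46.1% also lower in CamK than in SST, beside 17.8% and 13% of all tested. These comparisons share the CamK libraries.

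**Figure D4:**
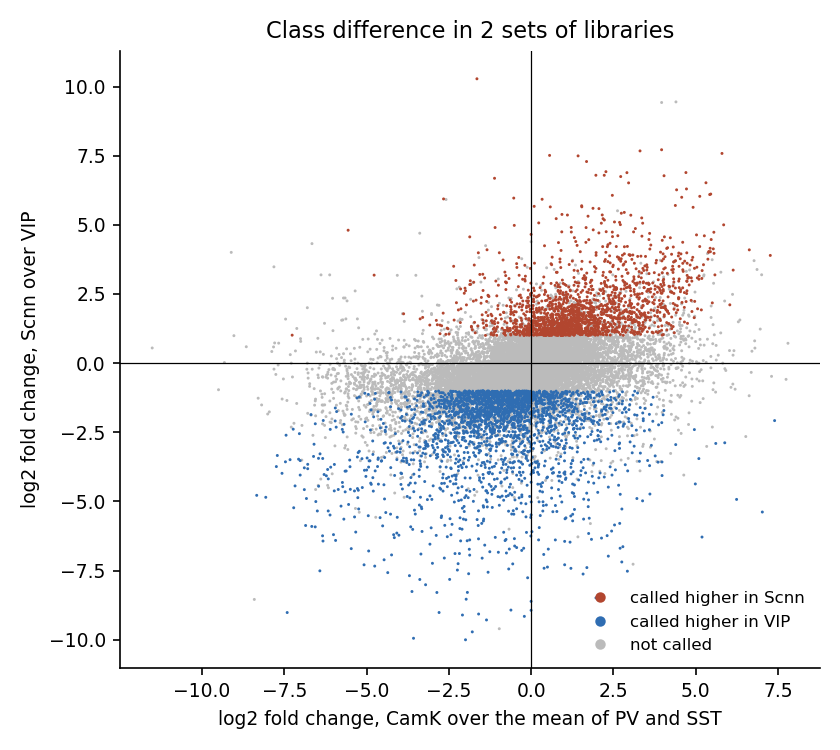
Log2 fold change of Scnn over VIP (vertical axis) against that of CamK over the mean of PV and SST cortex (horizontal axis), 1 point per feature tested, coloured by the Scnn against VIP call. Features higher in Scnn lie mostly to the right of 0 (85.9%, beside 47.3% of all features tested). Features higher in VIP lie mostly to the left (74.0%, beside 52.6%), while many features far along the horizontal axis lie near 0 on the vertical one.

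A class contrast in hippocampus uses a further set of libraries. CamK and Grik differed there from SST in 6645 features (27.1%). Of the features higher in Scnn, 746 (40.2%) were also higher in CamK and Grik than in SST, where 10.1% of all features tested were so, and 199 (10.7%) were lower. Of the features higher in VIP, 1121 (43.5%) were also higher in SST than in CamK and Grik, where 16.9% of all tested were so, and 252 (9.78%) were lower.

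The level of both lists in libraries that did not choose them is shown in the plot of list levels. The list higher in Scnn had a median of 3.06 to 3.18 log2 CPM in the CamK cortex libraries, above 1.61 to 1.89 in PV and 1.76 to 1.93 in SST. Scnn itself was at 3.44 to 3.69 and VIP at 1.44 to 1.83, a gap that the choice of the list fixes. CamK and Grik hippocampus held this list at 2.44 to 2.56 and 1.99 to 2.05, and SST hippocampus averaged 1.55 ± 0.04 (SD, n = 4). The list higher in VIP was lowest in CamK cortex, at -0.90 to -0.55 log2 CPM, beside Scnn at -0.65 to -0.23. PV held it at -0.04 to 0.20 and SST cortex at 0.33 to 0.49, between Scnn and VIP (1.35 to 1.49). CamK was therefore near Scnn on both lists. PV and SST were near VIP on the Scnn list and between the groups on the VIP list.

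**Figure D5:**
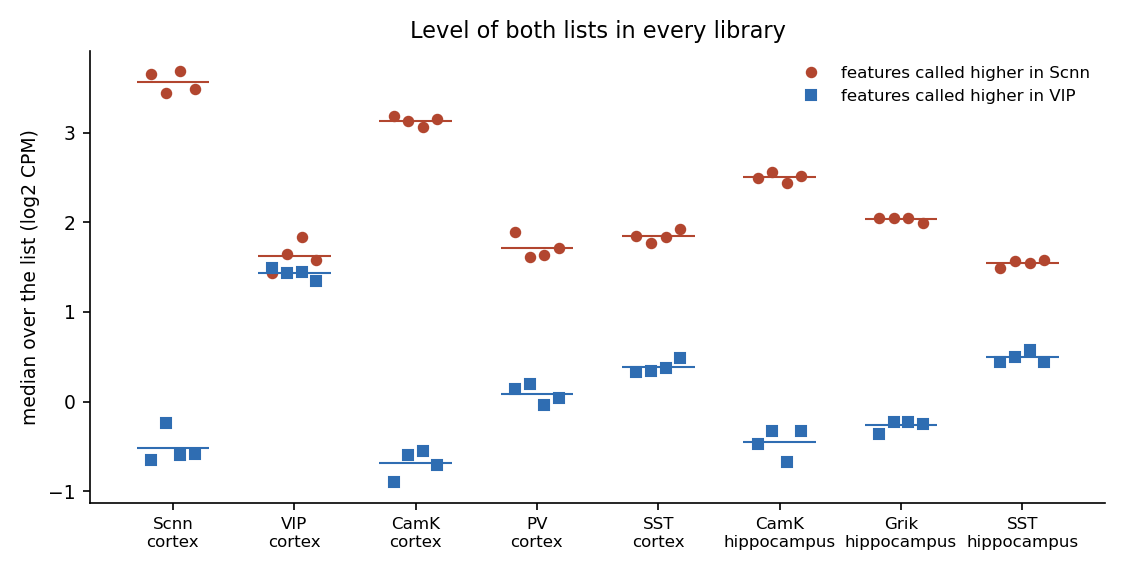
Median log2 CPM over 1857 features called higher in Scnn (circles) and 2576 called higher in VIP (squares), 1 point per library in each of the 8 groups, with lines at group means. The Scnn and VIP groups chose the lists; among the others CamK cortex holds the Scnn list highest (3.06 to 3.18) and the VIP list lowest (-0.90 to -0.55).

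Features that set CamK apart from PV and SST most were read in Scnn and VIP, whose libraries did not choose them. GSMG0001603 was at 80.3, 63.2, 97.7 and 96.2 CPM in Scnn and at 3.18, 6.18, 8.77 and 6.77 CPM in VIP, beside 85.0 ± 12.7 CPM in CamK, 2.35 ± 0.496 CPM in PV and 1.79 ± 0.356 CPM in SST. Its log2 fold change of Scnn over VIP was 3.76 (SE 0.31, edgeR adjusted p = 7.17e-11). Scnn matched CamK in level here, and VIP lay above the other interneurons. In hippocampus the feature did not follow class throughout. It was at 32.5 ± 6.85 CPM in CamK but at 1.23 ± 0.778 CPM in Grik, beside 0.831 ± 0.181 CPM in SST. GSMG0043799 was at 137.2 to 167 CPM in Scnn and at 8.86 to 19 CPM in VIP, beside 177.2 ± 11.3 CPM in CamK. It differed between Scnn and VIP by 3.56 (SE 0.16, edgeR adjusted p = 1.24e-17). The VIP libraries again lay above PV (5.66 ± 1.11 CPM) and SST (3.89 ± 0.351 CPM).

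In the GABAergic direction the features chosen in this way parted. GSMG0022957 was at 7.10, 10.2, 5.36 and 6.82 CPM in Scnn and at 216.8, 206.6, 159.3 and 266.4 CPM in VIP. The groups differed by -4.85 on the log2 scale (SE 0.29, edgeR adjusted p = 8.48e-14). VIP was thus at the level of PV (229.6 ± 28.9 CPM) and SST (219.2 ± 24.3 CPM), while Scnn lay above CamK (0.84 ± 0.403 CPM). GSMG0010975 was at 4.05, 4.64, 3.47 and 3.57 CPM in Scnn and at 2.12, 2.92, 4.83 and 1.83 CPM in VIP. It was not called between these groups, which overlap (log2 fold change 0.42, 95% interval -0.10 to 0.94, edgeR adjusted p = 0.194). In PV it stood at 73.4 ± 13.1 CPM and in SST at 374.2 ± 36.9 CPM, so VIP shared with Scnn a low level of a feature abundant in the other interneurons. CamK was lower still, at 0.702 ± 0.319 CPM, and both Scnn and VIP were called above it.

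Features with a class pattern in both regions were counted next. Higher in CamK than in PV and SST cortex, and higher in CamK and Grik than in SST hippocampus, were 1661 features (6.76% of those tested). Of these, 637 (38.4%) were also called higher in Scnn than in VIP, 125 were called lower and 899 were not called. Of all features tested, 7.56% were higher and 10.5% lower in Scnn than in VIP. Their median log2 fold change was 0.77 for Scnn over VIP and 2.33 for CamK over PV and SST. In the other direction 2095 features (8.53%) were lower in both, of which 767 (36.6%) were also lower in Scnn than in VIP, 49 were higher and 1279 were not called. Their median was -0.97 for Scnn over VIP and -2.30 for CamK over PV and SST. The lists were chosen on CamK, so the medians for CamK over PV and SST are inflated in size by that choice.

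The difference between the class differences was tested itself, as Scnn minus VIP less CamK minus the mean of PV and SST. It passed in 4711 features (19.2%), with 1850 positive (7.53%) and 2861 negative (11.7%). The named features with the largest positive values were abundant in PV and SST but low in both Scnn and VIP. GSMG0022700 was at 1.69 to 2.27 CPM in Scnn and 0.73 to 1.95 CPM in VIP, with CamK at 0.412 ± 0.457 CPM, PV at 68.5 ± 5.70 CPM and SST at 126.3 ± 5.20 CPM. The difference of the class differences was 8.41 (SE 0.57, edgeR adjusted p = 5.05e-12), while Scnn over VIP was 0.59 (SE 0.38, edgeR adjusted p = 0.228). GSMG0010275 was at 0.976 to 1.68 CPM in Scnn and 0.498 to 0.972 CPM in VIP, with CamK at 0.194 ± 0.107 CPM, PV at 63.9 ± 17.0 CPM and SST at 24.8 ± 4.08 CPM, and gave 8.39 (SE 0.44, edgeR adjusted p = 3.26e-15).

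The named features with the largest negative values were held by VIP and low in the other interneurons of the cortex. GSMG0037896 was at 0.0367, 0.098, 0.269 and 0.179 CPM in Scnn and at 29.0, 22.7, 19.1 and 29.9 CPM in VIP. CamK (0.427 ± 0.149 CPM), PV (0.15 ± 0.0562 CPM) and SST (0.225 ± 0.116 CPM) were all below 1 CPM, and the value was -8.63 (SE 0.58, edgeR adjusted p = 2.41e-13). GSMG0007977 was at 0.275, 0.627, 0.358 and 0.15 CPM in Scnn and at 25.5, 27.6, 19.6 and 33.6 CPM in VIP. It averaged 1.19 ± 0.338 CPM in CamK, 0.0844 ± 0.0482 CPM in PV and 0.666 ± 0.317 CPM in SST, and gave -8.55 (SE 0.49, edgeR adjusted p = 4.57e-15). In SST hippocampus it reached 4.87 CPM and lay 2.58 (log2) above SST cortex (SE 0.34, edgeR adjusted p = 9.06e-07).

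Scnn and VIP stood together, each called the same way against each of CamK, PV and SST cortex, in 539 features (2.2%). In 501 features (2.04% of those tested) each was called higher than each of CamK, PV and SST cortex, and in 38 features (0.155%) each was called lower. This imbalance turned without the fold threshold, which left 734 higher and 792 lower, and the 38 became 23 without VIP replicate 1 and 25 without VIP replicate 4. The corresponding counts for CamK with Scnn, both glutamatergic, were 694 higher and 486 lower, and for PV with SST 276 higher and 478 lower. VIP with PV gave 56 higher and 77 lower, and VIP with SST 177 and 41. The other pairs of opposite class gave 4 to 81 higher and 5 to 170 lower. These counts share libraries and were not tested against each other. Scnn replicate 2 weighed on the count of 501. It was the highest of the 4 Scnn libraries in 384 of the 501 features (76.6%), beside 25.6% of all features tested. In the median of the 501 features it lay 2.79 (log2) above the mean of CamK, PV and SST, the other Scnn libraries 1.69 to 2.08 above it, and the VIP libraries 2.39 to 2.96 above it. Without Scnn replicate 2 the count was 277, of which 268 were among the 501.

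The top features of that kind show it by library. GSMG0024505 was at 9.02, 119.2, 9.10 and 5.83 CPM in Scnn replicates 1 to 4 and at 35.1, 44.0, 53.8 and 43.8 CPM in VIP. Its log2 fold change of Scnn over CamK was 2.89 (SE 0.79, edgeR adjusted p = 0.00453), and 0.73 (SE 0.55, edgeR adjusted p = 0.327) without Scnn replicate 2. GSMG0009442 was at 2.02, 21.1, 1.33 and 2.33 CPM in Scnn and at 4.35, 7.77, 9.47 and 5.87 CPM in VIP, and the call of Scnn over PV was lost without that library (log2 fold change 0.56, edgeR adjusted p = 0.396). The features low in both populations did not depend on it. GSMG0012920 was at 11.9, 9.96, 12.3 and 10.3 CPM in Scnn and at 6.76, 8.70, 11.5 and 8.54 CPM in VIP, against 37.7 ± 3.51 CPM in CamK, 82.0 ± 3.69 CPM in PV and 37.2 ± 5.02 CPM in SST. Scnn over CamK was -1.76 (SE 0.16, edgeR adjusted p = 1.73e-10), and -1.71 without Scnn replicate 2. GSMG0012917 was at 2.90 to 3.87 CPM in Scnn and 1.86 to 2.73 CPM in VIP, against 11.6 ± 1.71 CPM in CamK, 26.1 ± 4.12 CPM in PV and 10.5 ± 1.21 CPM in SST. The low level was not particular to the pair outside cortex. CamK hippocampus averaged 12.8 CPM for GSMG0012920 and 4.25 CPM for GSMG0012917. Grik hippocampus was at 19.4 and 7.73 CPM, and SST hippocampus at 67.5 and 27.8 CPM.

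A pair of very abundant features, GSMG0038934 and GSMG0023431, known from earlier work on these data to be high in both populations, took 4.57%, 12.96%, 2.56% and 6.78% of the counts in Scnn replicates 1 to 4. They took 5.26%, 3.63%, 4.53% and 6.73% in the VIP libraries. The other 24 libraries ranged from 0.0938% to 3.46%, so the groups overlapped in the lowest Scnn library. Between Scnn and VIP neither feature was called, with a log2 fold change of 0.79 (95% interval -0.19 to 1.77, edgeR adjusted p = 0.195) for GSMG0038934 and 0.47 (-0.51 to 1.45, edgeR adjusted p = 0.46) for GSMG0023431.

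Fewer features reached 1 CPM in Scnn, with 14290, 14809, 14355 and 14399, than in VIP, with 15088, 15152, 15483 and 15066, and the groups did not overlap. An exact permutation test, two-sided, gave p = 0.0286, the smallest 4 against 4 allow, and 0.0571 after adjustment over 2 library measures, so the difference did not pass. As the unadjusted p could be no smaller, passing also required the other measure to reach p under 0.05. The other 24 libraries had 13579 to 14194, below both groups. VIP was also above them without TMM scaling and at 5 CPM, but Scnn then overlapped them: without TMM scaling Scnn started at 14299 and the others reached 14334, and at 5 CPM Scnn ranged from 10659 to 10920 and the others reached 10823. The 100 most abundant features of a library took 22.9% to 31.2% of its counts in Scnn and 20.8% to 24.5% in VIP (exact permutation test, two-sided p = 0.0857, adjusted p = 0.0857).

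VIP titles carry the W and Scnn titles do not, so the effects of population and of whatever the W stands for cannot be told apart. CamK and SST were each sampled in a plain cortical and a W hippocampal group, where series and region change together. In both of them 294 features were higher with the W, of which 27 (9.18%) were higher in Scnn and 83 (28.2%) higher in VIP, beside 7.56% and 10.5% of all features tested. The 329 features lower with the W in both included 138 (41.9%) higher in Scnn and 46 (14.0%) higher in VIP. Those 138 make up 7.43% of the list higher in Scnn, while the 329 make up 1.34% of all features tested. The 83 make up 3.22% of the list higher in VIP, while the 294 make up 1.20% of all features tested. Their part in the result was not tested. The class contrast in CamK, PV and SST cortex lies wholly within the plain titles and that of the hippocampus wholly within the W titles, so the W does not vary within either of them. GSMG0043055, singled out after its values were seen, was at 0.0733, 29.5, 0.17 and 29.7 CPM in Scnn and at 59.8, 58.6, 17.5 and 57.8 CPM in VIP. It was near 0 in Scnn replicates 1 and 3 and in 0 of 4 VIP libraries, and was not called (log2 fold change -1.71, SE 1.80, edgeR adjusted p = 0.481).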

How the data were processed

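The authors deposited 1 table of expected counts, which may hold fractions of reads, for 56459 features. Of the values above 0, 20.1% were whole within 1e-06, and 94.1% of whole values up to 10 were even, so a fragment appears to add 2 reads. Another 12 columns of per-sample values match no label and were not used. Per the labels' protocols, polyadenylated RNA was made into stranded TruSeq libraries. Per the submitters' processing notes the build was GRCm38 and the tools were FastQC, Picard, SAMtools and featureCounts. The aligner, annotation and strand setting were not given in the sources used here, so overlapping, antisense and near-identical features are uncertain. Totals per library are 100158438 to 186505391. No label says that libraries come from separate animals, so p-values measure the spread between libraries, which may be technical. Libraries of a group differed well beyond counting noise.

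Counts were rounded and analysed in edgeR 4.0.16 (R 4.3.3): filterByExpr kept 24555 features with 99.99% of counts, TMM scaling, and a robust quasi-likelihood fit of 8 group means to all 32 libraries (24 residual degrees of freedom, common biological coefficient of variation 0.253). A standard error is the log2 fold change over the square root of F. The deposited length of a feature was used only for medians. Named features are the 2 largest and 2 smallest log2 fold changes that were called, averaged 5 CPM or more on the higher side and came from libraries that do not overlap. The overlap condition was left out for the difference of class differences, and features on which Scnn and VIP stand together were ranked by the smallest of 6 log2 fold changes. The code was tested on simulated data. Alternatives included DESeq2 1.42.0. The contrasts and rules were chosen with earlier results of these data known.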

Additional observations from a re-analysis of the deposited data

Results flagged for a closer look

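The difference between Scnn and VIP departed from that between CamK and PV with SST in 4711 features by the test of the difference itself. Those named were GSMG0022700 (8.41), GSMG0010275 (8.39), GSMG0037896 (-8.63) and GSMG0007977 (-8.55), as log2 differences of the class differences. The features examined for single libraries were mostly chosen on their values, so the count that follows is not set against chance. In 12 of 100 groups of 4 values examined, 1 library lay apart from the other 3. In Scnn these were GSMG0024505 at 119 CPM, GSMG0009442 at 21.1 CPM and GSMG0018104 at 29.3 CPM, each in replicate 2, and GSMG0021962 at 0.0376 CPM in replicate 4. GSMG0018104 was singled out after its values were seen and ranged from 0.357 to 29.3 CPM in Scnn and from 7.26 to 24.7 CPM in VIP. In VIP these were GSMG0052031 at 0.0351 CPM, GSMG0012917 at 2.73 CPM and GSMG0043055 at 17.5 CPM. In the groups set beside them, GSMG0021962 stood apart at 0.00998 CPM in 1 CamK, 0.019 CPM in 1 PV and 0.0556 CPM in 1 SST library, where the other libraries of the group were at 0. In SST cortex 1 library also lay apart for GSMG0001603, at 2.32 CPM with the others at 1.56 to 1.65 CPM. For GSMG0022700 it lay at 119 CPM with the others at 128.1 to 129.7 CPM.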

How the results depend on the processing

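The count of features called between Scnn and VIP was 4136 to 4961 when single libraries were left out, 4458 with DESeq2 size factors, 4637 with DESeq2's own test, 3544 when a feature had to reach 1 CPM in 4 or more libraries and 3682 by glmTreat against 1.5-fold. The larger side was VIP in all of these. Without the fold threshold the counts were 10427 for Scnn against VIP, 14061 for CamK against PV and SST, 13210 in the hippocampus and 9011 for the difference of class differences. Calls shared with the cortical and hippocampal class contrasts were then 6232 and 5715, against 2206 and 1867. The count of features on which Scnn and VIP stood together was the least stable, 311 to 711 when single libraries were left out, 337 by glmTreat and 1526 without the fold threshold, against 539. For GSMG0024505 the log2 fold change of Scnn over VIP was -0.30, and -2.466 to 0.05 with single libraries left out; those above 0 were 0.050, 0.049 and 0.047. For GSMG0009442 it was -0.04, and -1.856 to 0.331 with single libraries left out, those above 0 being 0.294, 0.331, 0.241, 0.051 and 0.155, and 0.034 in the 8 libraries alone. The remaining named features kept their direction in the alternatives run. No pairing by replicate number was seen. Same-numbered Scnn and VIP libraries had correlations of -0.04 to 0.09 of their deviations from the group means, and 1 of 4 Scnn libraries correlated best with its own number. A small shared effect could be missed in this way, and the labels do not say what the numbers mean, so pairing remains unknown. The fit of the 8 libraries with the replicate block gave 4524 calls, and 4552 without it. Features below 1 CPM were seldom bounded within 2-fold (4.38%), so a missing call there says little. The alternatives for the pairs of opposite class, for features on which Scnn and VIP stood together, for the hippocampus and for features alike were chosen after the data were seen.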
